A study of Mus musculus with 1111 samples.

Results

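The genes described here encode 5 proteins of the phagocyte NADPH oxidase: Cyba, Cybb, Ncf1, Ncf4 and Rac2. They were taken by name from the 35583 genes of the count tables, and all 5 were found once. Each library is 1 microglial cell from the brain of 3-month-old mice, made by Smart-seq2, a full-length method for sorted single cells. The mice had received plasma proteins labelled with NHS-Atto647N, a fluorescent dye, 20 hours before, and the cells were sorted by their plasma signal into plasma none, plasma low and plasma high. All 3 groups therefore share the age and the injection. Strain, sex and genotype are not given in the sources used here. Since the labels name no animal, a group is treated as a single sample, the groups are not tested against each other and no p-values are reported. The labels also carry a TH number from 1 to 3 of unstated meaning, which divides each group into 3 sets of wells. Every error below is the SD over these 3 sets (n = 3) unless another is named, and it is not a spread between animals.

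The phagocyte NADPH oxidase moves electrons from NADPH across a membrane to oxygen and so makes superoxide outside the cell or inside a phagosome. Its catalytic core, the heterodimer of the proteins of Cybb (gp91phox, also NOX2) and Cyba (p22phox), sits in the membrane. Ncf1 (p47phox) and Ncf4 (p40phox) encode cytosolic subunits that join the core on activation together with a Rac GTPase, which is Rac2 or Rac1. Microglia, the resident macrophages of the brain, are known to carry this oxidase.

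Most cells with a Cybb read were in plasma high: the gene was read in none of the passing plasma none cells, in 2 plasma low cells (0.570%) and in 12 of 290 plasma high cells (4.14%). Cyba was read in 88.7% to 93.2% of the cells of each group. Rac2 stood higher in plasma high than among plasma none cells in 3 of 3 TH numbers, by a mean log2 ratio of 0.48 ± 0.30. Of all genes tested, 18.8% were also higher in 3 of 3. Ncf1 and Ncf4 had ratios of both signs. None of the 4 members that passed the filter on low values met the size rule in any comparison. Of all genes tested, 5.15% met it in high against none, 2.64% in low against none and 3.28% in high against low. With 4 members, such counts are too small to be told from these shares.

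Group and plate position cannot be told apart. The labels place plasma none in columns 1 to 8 of the plate layout, plasma low in columns 9 to 16 and plasma high in columns 17 to 23, or to 24 in TH 3. Columns of values were matched to 1045 of 1111 labelled cells, and the other 66 were not analysed here. Cells with 50000 or more reads in genes and 500 or more genes were used, which left 987 cells, and the reads of a group and TH number summed to between 21309816 and 49323522. Median reads per cell were 217146 ± 53263 without plasma signal, 250870 ± 94332 with a low signal and 289558 ± 99803 with a high signal. At an equal 50000 reads per cell, the median cell had 1534 ± 77.6 genes without plasma signal, 1813 ± 194.1 with a low signal and 1748 ± 111.5 with a high signal. All 987 cells had at least 3 of 8 microglia markers at 10 CPM or more. The neutrophil list, for cells rich in this oxidase, had 7 of 8 markers at 0 in plasma none and 8 of 8 at 0 in plasma low and plasma high, and its summed level was at most 13.97 CPM. Monocyte markers summed to at most 8.42 CPM, with 4 of 6 at 0 in plasma none and 5 of 6 at 0 in the other groups. Border-associated macrophage markers summed to between 0.217 and 1.34 CPM without plasma signal, 2.64 and 22.2 with a low signal and 0 and 4.50 with a high signal, with Cd163, Lyve1, Pf4 and Ms4a7 at 0 in all 3. Dendritic cell markers summed to between 14.8 and 31.6 CPM without plasma signal, 5.78 and 58.1 with a low signal and 1.96 and 40.2 with a high signal, with Cd209a of the 5 at 0 in all 3 groups and Xcr1 also at 0 in plasma high. Oligodendrocyte markers summed to between 21.2 and 67.5 CPM without plasma signal, 20.3 and 59.7 with a low signal and 56.1 and 83.4 with a high signal, with Mog of the 4 at 0 throughout. Reads in mitochondrial genes made up a median of 0.604% ± 0.0558 per cell without plasma signal, 0.819% ± 0.0851 with a low signal and 0.975% ± 0.205 with a high signal. The part that these markers and the mitochondrial share have in the differences between groups was not tested.

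Promoter windows are shown as a description of the genes. Any link between them and the share of cells with a read was not tested. Each is the 250 bases before the gene's start in RefSeq (build GRCm38.p6), written 5′ to 3′ on the gene's strand, for Cybb (chrX:9469325-9469574, minus strand), Ncf1 (chr5:134229626-134229875, minus strand) and Cyba (chr8:122432941-122433190, minus strand). The start that this table uses for Cybb lies inside the longer span that the annotation gives the gene, so the Cybb window is not at the outer end of that span, while those of Cyba and Ncf1 lie at theirs. Capitals mark matches, on either strand, to a pattern of the interferon response element type, which is GAAA, any 2 bases and GAAA again. The promoter table held 3 of the 5 members, and Ncf4 and Rac2 are named only.

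Cybb: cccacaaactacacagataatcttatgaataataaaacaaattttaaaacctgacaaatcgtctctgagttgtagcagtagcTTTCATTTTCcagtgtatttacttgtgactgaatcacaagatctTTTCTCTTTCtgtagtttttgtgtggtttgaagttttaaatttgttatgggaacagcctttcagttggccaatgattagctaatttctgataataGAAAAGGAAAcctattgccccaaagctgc
Ncf1: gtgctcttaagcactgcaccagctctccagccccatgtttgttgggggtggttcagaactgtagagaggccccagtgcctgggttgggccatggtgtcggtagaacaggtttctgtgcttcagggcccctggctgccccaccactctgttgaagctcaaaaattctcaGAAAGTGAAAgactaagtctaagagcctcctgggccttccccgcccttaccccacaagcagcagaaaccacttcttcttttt
Cyba: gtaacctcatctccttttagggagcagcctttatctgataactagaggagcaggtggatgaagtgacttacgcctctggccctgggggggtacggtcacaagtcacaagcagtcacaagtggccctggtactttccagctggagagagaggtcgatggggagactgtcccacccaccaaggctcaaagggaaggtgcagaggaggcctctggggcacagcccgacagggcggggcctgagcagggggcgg

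The Cybb window held 3 matches to this pattern. A match on the gene's strand lay 29 to 20 bases before the start, and the other 2, on the opposite strand, lay farther from it. In the Ncf1 window there was 1 match, on the gene's strand, 82 to 73 bases before the start, and the Cyba window had none. Of 32851 promoter windows of the same length, 2.98% held the pattern. GAGGAA, a form of the site of the transcription factor PU.1, was in none of the 3 windows and in 23.3% of all windows. Only these 6 letters were searched, so shorter or other forms of the site are not covered. A match describes letters in a window, and says nothing of a factor being bound.

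Cybb (chrX:9435252-9487771, minus strand, mm10) encodes the catalytic subunit that carries the electrons. Its level in CPM (a gene's reads relative to all reads in genes, scaled with TMM factors) was 0 in all 3 sets of plasma none. In plasma low it was 3.997, 0 and 26.6 CPM in TH 1, 2 and 3, and in plasma high 31.3, 55.8 and 31.3 CPM. Every set of plasma high lay above every set of the other groups, with TH 3 of plasma low closest below.

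The share of cells with a Cybb read was 4.14% of plasma high (12 of 290, 95% Clopper-Pearson interval 2.16% to 7.12%) and 0.570% of plasma low (2 cells, 0.0691% to 2.04%). In plasma none it was 0%, which allows a share of up to 0.867% (3 counts of the total), and the Clopper-Pearson interval reaches 1.06%. By TH number, 3, 5 and 4 cells of plasma high had a read. These intervals and limits cover counting error only, and cells of 1 group share their source. With each cell thinned to 50000 reads, 11 cells of plasma high (3.79%) and 2 of plasma low kept a Cybb read. The order of the groups was therefore the same at equal depth as without thinning.

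Because Cybb was read in under 10% of the cells of every group, it did not pass the filter on low values, and its log2 ratio is not given as a result, since it depends on the pseudocount. As a background chosen after these values were seen, 1472 genes had a read in 10 to 20 passing cells. Of those, 0.340% had, like Cybb, no read in plasma none and a read in each set of plasma high, which is 5 genes with Cybb among them.

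The 14 cells with a Cybb read held 4989 Cybb reads in all, 4195 in plasma high and 794 in plasma low, from 1 to 977 in a cell. Within these cells the level had a median of 694 CPM and ran from 4.82 to 1879 CPM, so the gene was either unread or, in 13 of the 14 cells, covered by 10 or more reads. The cell at 4.82 CPM rested on 1 read and was in plasma high, TH 3. In plasma low, both cells had high levels, 1879 CPM in TH 1 and 988 CPM in TH 3, and the values of that group rest on 1 cell in each of these sets. When the cell with the most Cybb reads was left out of each sum, plasma low had no Cybb read in any set.

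Each of the 14 cells had at least 5 of the 8 microglia markers at 10 CPM or more and at most 1 marker of any other list. The 12 plasma high cells lay in 6 of the 7 plate columns with passing cells of that group and the 2 plasma low cells in column 15, and the 14 cells covered 9 rows of the layout. Depth in the 12 plasma high cells had a median of 466164 reads, against 267143 for all plasma high cells. The mitochondrial share of the 14 cells ran from 0.216% to 2.91%, with a median of 1.27%, and 0 of them had a dendritic cell marker at 10 CPM or more.

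**Figure D1:**
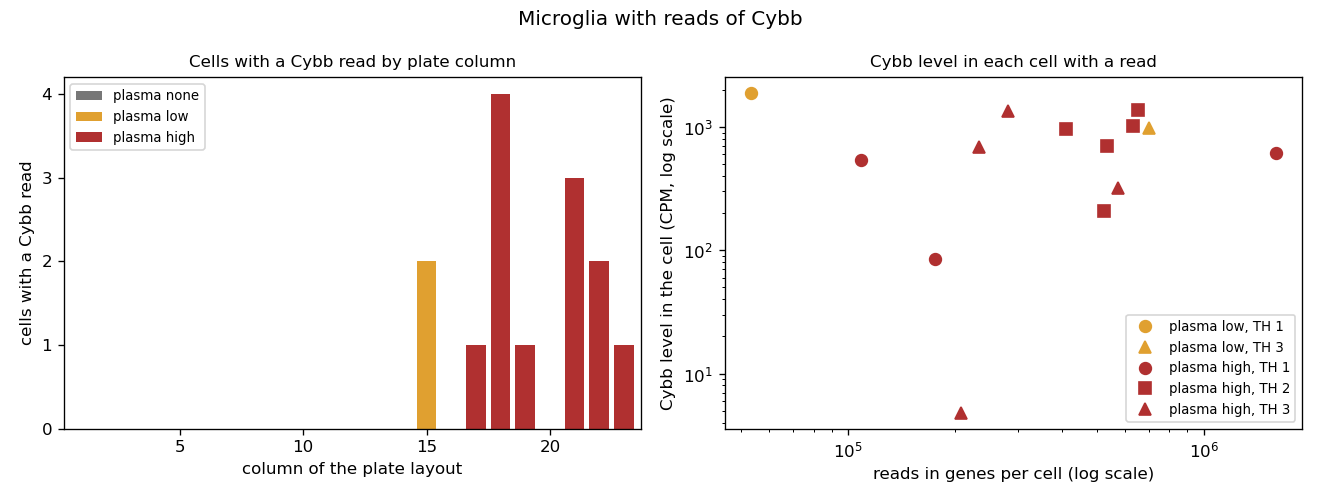
Left, number of passing cells with a Cybb read by column of the plate layout, coloured by group, and right, Cybb level (CPM) against reads in genes for each of the 14 cells, both on log scales, with symbols for the TH number. Columns 1 to 8, which hold plasma none, have no such cell, and 13 of the 14 cells lie above 80 CPM.

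Among the 12 plasma high cells with Cybb reads, all 12 also had reads of Cyba, 6 of Ncf1, 4 of Rac2 and 2 of Ncf4. All plasma high cells together, these 12 included, had reads of Cyba in 91.4%, Ncf1 in 61.4%, Rac2 in 41.4% and Ncf4 in 25.2%. Reads of all 5 members occurred together in 3 of the 14 cells, of which 2 were in plasma high and 1 in plasma low. A transcript without a read in a cell may still be there, since a single-cell library holds part of the cell's RNA.

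Reads of Cd74, the invariant chain of MHC class II, were found in 8 of the 12 plasma high cells with Cybb reads (66.7%) and in 10.7% of all 290 plasma high cells. For Apoe, which carries lipids, the shares were 58.3% and 27.2%. The shares lay closer together for Lyz2, at 75% and 58.6%, and Cd52, at 75% and 47.2%. These genes were picked after their values were seen, and in cells thinned to 50000 reads the counts among the 12 were 8 for Cd74 and 7 for Apoe, against 29 and 79 of the 290.

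Cyba (chr8:122424776-122432930, minus strand) encodes p22phox, the partner that holds the catalytic subunit in the membrane. Its level was 389.99, 391.6 and 311.5 CPM in TH 1, 2 and 3 of plasma none, 411.4, 398.03 and 347.1 CPM in plasma low, and 379.3, 391.2 and 334.6 CPM in plasma high. The groups overlapped, and TH 3 was the lowest set of each group. The log2 ratio, taken on CPM plus 1 within each TH number, was 0.02 ± 0.07 for plasma high against plasma none, 0.09 ± 0.07 for plasma low against plasma none and -0.06 ± 0.05 for plasma high against plasma low. At 50000 reads per cell, 88.7% of plasma none cells, 92.3% of plasma low cells and 89.7% of plasma high cells had a Cyba read. Within cells that had one, the quartiles in plasma none were 212.2 and 576.3 CPM, with a median of 360.3 CPM.

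Ncf1 (chr5:134220053-134229625, minus strand) encodes p47phox, the organizer that brings the cytosolic subunits to the membrane. It was measured at 336.5, 332.6 and 308.6 CPM without plasma signal, 339.7, 354.3 and 302.98 CPM with a low signal and 340.7, 260.2 and 371.1 CPM with a high signal. The sets of plasma high held both the lowest and the highest value. Ratios were -0.02 ± 0.31 for plasma high against plasma none, 0.03 ± 0.06 for plasma low against plasma none and -0.05 ± 0.37 for plasma high against plasma low, each smaller than its SD. Cells with an Ncf1 read at equal depth made up 48.5% ± 6.05 of plasma none cells, 56.4% ± 6.65 of plasma low and 56.9% ± 15.01 for plasma high. The Ncf1 gene overlaps Gtf2ird2, which lies on the opposite strand, and the use of strand in counting is not given in the sources used here. Reads of these genes can therefore not be told apart with certainty, and their levels moved together across cells (r = 0.66 over 987 cells). Cyba overlaps Gm20388 on the opposite strand in the same way, and Gm20388 was at 28.2 CPM among plasma none cells and 51.3 CPM in plasma high.

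Ncf4 (chr15:78244801-78262580, plus strand) encodes p40phox, which binds a phosphoinositide of the phagosome membrane. Levels were 117.1, 72.6 and 69.5 CPM without plasma signal, 86.01, 114.2 and 43.9 CPM with a low signal and 83.9, 123.5 and 64.8 CPM with a high signal. The groups overlapped over most of their range. Its log2 ratios were 0.06 ± 0.63 for plasma high against plasma none, -0.15 ± 0.70 for plasma low against plasma none and 0.21 ± 0.30 for plasma high against plasma low. Without TH 2 the first of these was -0.29, and without TH 1 it was 0.33. A single cell held 12.4% of the Ncf4 reads of plasma high. At equal depth the share of cells with a read was 20.2% without plasma signal, 23.1% with a low signal and 23.4% with a high signal.

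Rac2 (chr15:78559167-78572783, minus strand) encodes the Rac GTPase found mainly in blood cells and macrophages. It stood at 170.2, 167.3 and 131.3 CPM without plasma signal, 164.5, 176.8 and 152.4 CPM with a low signal and 187.8, 266.3 and 204.8 CPM with a high signal. The 3 sets of plasma high lay above all sets of the other groups, while plasma none and plasma low overlapped. Its log2 ratio was 0.48 ± 0.30 for plasma high against plasma none (0.14, 0.67 and 0.64 in TH 1, 2 and 3), 0.08 ± 0.13 for plasma low against plasma none and 0.40 ± 0.20 for plasma high against plasma low (0.19, 0.59 and 0.42). A single cell held 12.6% of the Rac2 reads of plasma high.

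By cells, plasma low lay closer to plasma high for Rac2 than it did in CPM. At 50000 reads per cell, 26.7%, 30.1% and 31.6% of cells in plasma none had a Rac2 read in TH 1, 2 and 3. The shares were 45.8%, 31.6% and 39.7% in plasma low, and 39.6%, 41.7% and 40.9% in plasma high. The plasma high share exceeded that of plasma none by 11.2 ± 1.85 percentage points and that of plasma low by 1.70 ± 8.11 points, with both signs in the second case. Within cells with a read, the median level was 439.2 CPM without plasma signal, 390.7 CPM with a low signal and 414.9 CPM with a high signal.

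**Figure D2:**
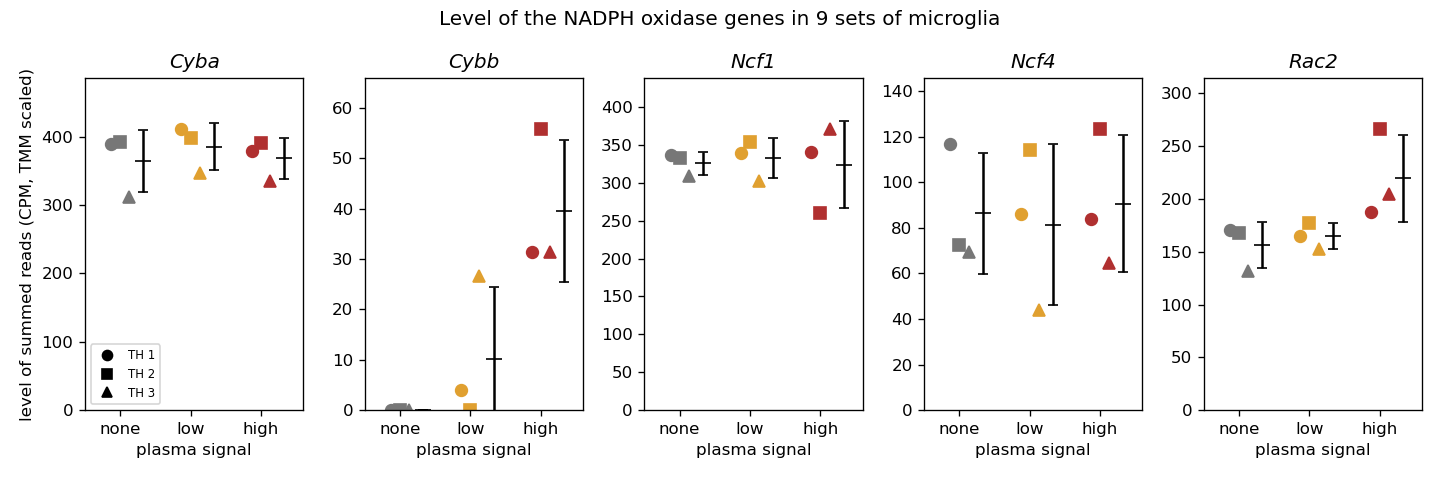
Level in CPM of each of the 5 genes (own vertical axis from 0) in the 3 groups, with 1 symbol for each TH number and, to the right of them, the mean and SD over the 3 TH numbers. Cybb is at 0 in plasma none and highest in plasma high, the plasma high sets of Rac2 lie above the others, and the groups overlap for Cyba, Ncf1 and Ncf4.

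How many genes in all behaved in these ways sets the scale for the members' counts. A gene counted as tested here when its mean over the groups compared reached 20 CPM and 10% of the cells in either had a read, which 4 of the 5 members met in each comparison. The size rule asked for a 2-fold or larger mean difference (log2 ratio 1) with 1 sign throughout the 3 TH numbers. For plasma high against plasma none, 0 of the 4 members met it, against 5.15% of 5534 genes tested. Of the 4, 1 (Rac2) was higher in 3 of 3 TH numbers, against 18.8% of all genes, and 0 were lower, against 13.8%. Rac2 was also the 1 member of 4 with all its plasma high sets above all plasma none sets, as were 8.51% of all genes.

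For plasma low against plasma none, 0 of 4 members met the size rule, against 2.64% of 5489 genes tested. Cyba was higher in 3 of 3 TH numbers, against 16.7% of all genes, and no member was lower, against 11.8%. In plasma high against plasma low, 0 of 4 met the size rule, against 3.28% of 5709 genes. Rac2 was higher in 3 of 3, against 14.1%, Cyba was lower in 3 of 3, against 13.1%, and Rac2 had all plasma high sets above all plasma low sets, against 5.20%. With 4 members tested, counts of 0 or 1 are too small to be told from these background shares. The comparisons share groups and are not independent.

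Over the 4 members tested, the median log2 ratio was 0.04 for plasma high against plasma none, 0.05 for plasma low against plasma none and 0.08 for plasma high against plasma low. Over all genes tested it was 0.05, 0.05 and 0.01. With Cybb added, taken against a floor of 3 reads over all of plasma none, the median of the 5 members was 0.06 in the first comparison. Cybb reads came many to a cell, so this floor does not give a lower bound on its ratio. The median size of a ratio, whatever its sign, was 0.32 over all genes in the first comparison, which Rac2 exceeded and Cyba, Ncf1 and Ncf4 did not.

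**Figure D3:**
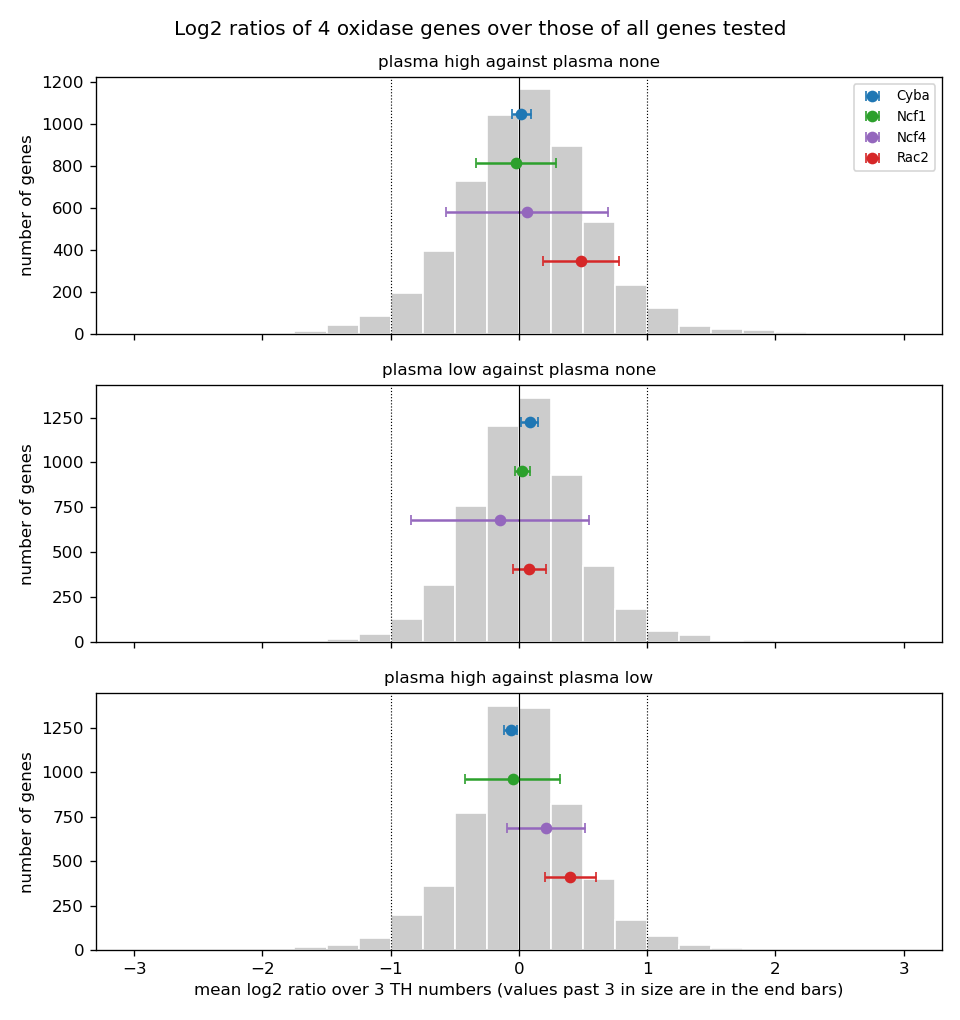
Mean log2 ratio (horizontal axis) of all genes tested, as grey bars that count genes, and of Cyba, Ncf1, Ncf4 and Rac2, as points with the SD over 3 TH numbers, in each of the 3 comparisons. Dotted lines mark a ratio of 1 in size, and all 4 points lie between them. The height of a point carries no value.

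Shares of cells were read against the same kind of background. At equal depth, Ncf1 and Rac2 were read in a larger share of plasma high than of plasma none cells in 3 of 3 TH numbers, which is 2 of the 4 members tested, against 34.9% of all genes tested. For plasma low against plasma none all 4 of them, Cyba, Ncf1, Ncf4 and Rac2, had larger shares in 3 of 3, against 38.8% of all genes. The median difference in share over all genes was 2.59 percentage points for plasma high and 3.01 points for plasma low, each against plasma none, beside the larger number of genes per cell in both groups. In plasma low against plasma none, Ncf1 differed by 7.87 ± 0.708 points, Rac2 by 9.54 ± 8.85, Cyba by 3.54 ± 1.503 and Ncf4 by 2.82 ± 1.60, the last 2 close to the median of all genes. Rac2 was the 1 of 4 members whose shares in plasma high all lay above those in plasma none, as did those of 17.6% of all genes. The part that the number of genes per cell has in these shares was not tested.

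**Figure D4:**
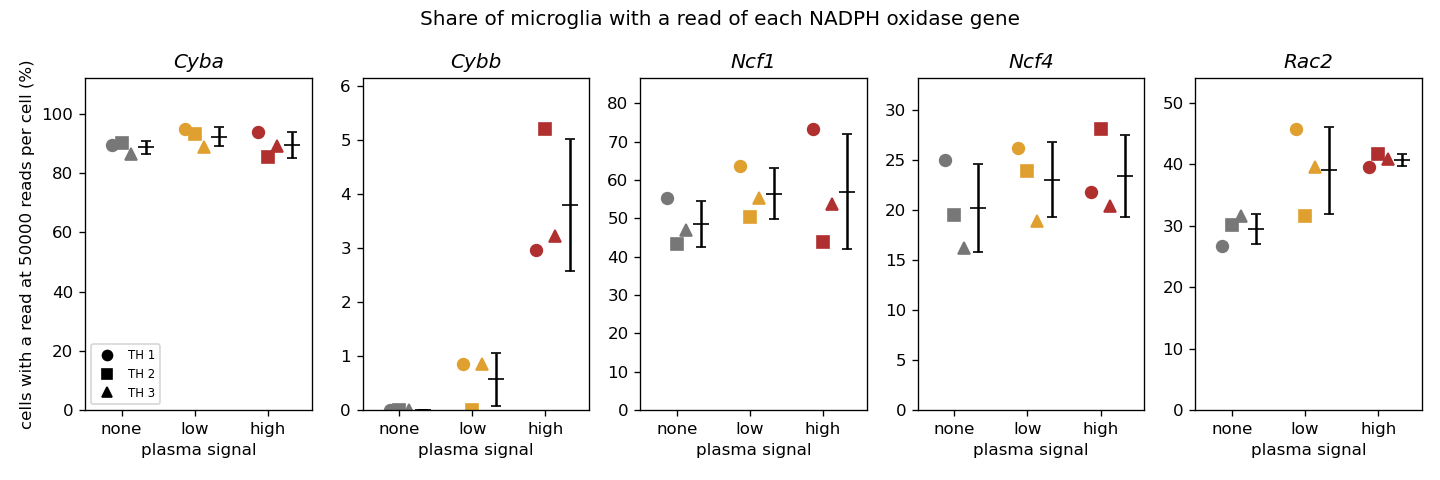
Percentage of cells with a read of each gene after thinning each cell to 50000 reads (own vertical axis from 0), with 1 symbol for each TH number and the mean and SD over the 3 TH numbers at the right of each group. The plasma high sets of Rac2 and Cybb lie above those of plasma none, and Ncf1 spreads widest in plasma high.

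Counted over the 5 members, the mean cell had reads of 1.87 ± 0.0835 of them without plasma signal, 2.11 ± 0.175 with a low signal and 2.14 ± 0.150 with a high signal at equal depth. Plasma high exceeded plasma none by 0.275 ± 0.0715 genes, in 3 of 3 TH numbers. At least 3 of the 5 were read in 21.998% ± 5.08 of plasma none cells, 32.4% ± 7.20 of plasma low cells and 34.7% ± 5.33 of plasma high cells. The genes per cell moved in the same order between plasma none and the other groups.

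**Figure D5:**
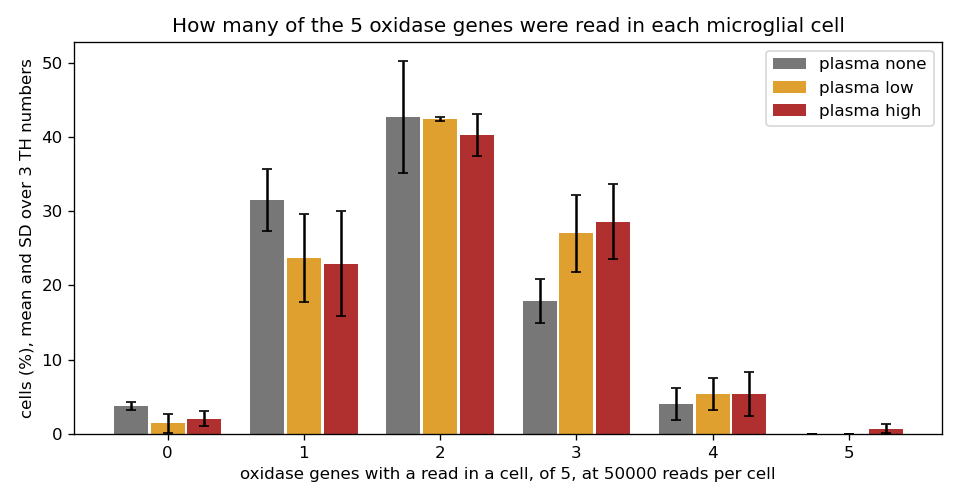
Percentage of cells (vertical axis, mean and SD over 3 TH numbers) with reads of 0 to 5 of the 5 genes after thinning each cell to 50000 reads, for the 3 groups. Cells with 2 of the genes are the most frequent in every group, and plasma none has more cells with 0 or 1 gene.

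Levels can be compared between genes per kilobase of exon. On that scale, Cyba had the highest level in each of the 9 sets, with 350.7 ± 44.1 CPM per kilobase in plasma none and 354.5 ± 28.7 in plasma high. Ncf1 came next among the members at 88.97 ± 4.13 and 88.4 ± 15.6, except in TH 2 of plasma high, where Rac2 was above it. Rac2 had 50.4 ± 6.98 and 70.8 ± 13.3, and Ncf4 had 42.8 ± 13.2 and 44.9 ± 14.8. The sets of Rac2 and Ncf4 overlapped in every group. Cybb was the lowest in every set, with 6.79 ± 2.43 CPM per kilobase in plasma high, which averages cells with many reads and cells with none. Rac1, the GTPase found in most cell types, had 129.9 ± 30.9 in plasma none, above Rac2 in each of the 9 sets.

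Across cells, the members hardly varied together. Pearson's r between log2(CPM + 1) of 2 members, with cells at 50000 reads and centred within each group and TH number, lay between -0.03 and 0.05 over 987 cells, which in counts this sparse is no finding. Among 1769 genes read in at least 25% of the cells, those most like Cyba were Gm49369 (r = 0.21), Ctsd (0.20) and Laptm5 (0.18). For Ncf1 the overlapping Gtf2ird2 came first (0.66), before Zfp710 and Mcl1 at 0.13 each. Rac2 was most like Tmed5, Spi1 and Idh3g (0.13 each), Ncf4 most like Wdr26, Mfsd5 and Rer1 (0.11 to 0.12), and Cybb most like Fnbp4, Mlf2 and Cd52 (0.13 to 0.14). The cells share their plate and group, and apart from Ncf1 with Gtf2ird2 these likenesses are weak.

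Direct partners of the oxidase outside these members include Rac1, Rap1a, Cybc1 and Hvcn1, which were all tested. For plasma high against plasma none, none of these met the size rule. Cybc1 and Hvcn1 were lower in 3 of 3 TH numbers, and Rac1 and Rap1a had ratios of both signs. Over all genes tested 5.15% met the size rule and 13.8% were lower in 3 of 3, and so few partners cannot be told from these shares. Cybc1, the chaperone needed for the catalytic heterodimer, was at 286.4, 216.4 and 173.6 CPM without plasma signal, 146.2, 163.8 and 117.7 with a low signal and 143.4, 113.5 and 147.1 with a high signal. All sets of plasma low and plasma high lay below those of plasma none, with log2 ratios of -0.64 ± 0.29 and -0.72 ± 0.42. Of all genes tested, 4.21% had all plasma low sets and 5.42% all plasma high sets below those of plasma none. Hvcn1, the proton channel that balances the charge, had a ratio of -0.11 ± 0.09 and overlapping groups, and its ratio in TH 2 was only -0.0018. Rac1 had 0.26 ± 0.33 and the small GTPase Rap1a -0.15 ± 0.71.

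Of 16 kinases, exchange factors and GTPase inhibitors that act on the oxidase, 14 were tested for plasma high against plasma none, 0 met the size rule, 4 were higher in 3 of 3 TH numbers and 1 was lower. Over all genes 5.15% met the size rule, 18.8% were higher and 13.8% lower. Counts of 4 and 1 in 14 are too small to be told from these shares. The largest ratios were those of the kinase Prkcb (0.48 ± 0.57) and the exchange factors Vav1 (0.41 ± 0.37) and Dock2 (0.41 ± 0.58), and the smallest those of the kinases Pak2 (-0.29 ± 0.29), Prkcd (-0.26 ± 0.39) and Prkca (-0.12 ± 0.53). Beside Vav1, those with 1 sign were Prex1, Arhgdia and Arhgdib, higher, and Pik3cg, lower, which are named after their values were seen. The list had a median of 0.14, beside 0.05 over all genes.

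Among 10 enzymes of the supply of NADPH, the fuel of the oxidase, 9 were tested for plasma high against plasma none. Some of them, Taldo1 and Nadk included, do not make NADPH themselves. Of the 9, 0 met the size rule, 2 were higher in 3 of 3 TH numbers and 2 lower. Over all genes 5.15% met the size rule, 18.8% were higher and 13.8% lower, and such small counts cannot be told from these shares. Taldo1, of the pentose phosphate pathway, was at 89.4 ± 22.4 CPM among plasma none cells and 147.5 ± 10.4 in plasma high (log2 ratio 0.75 ± 0.32), and Nadk, which makes NADP, at 66.7 ± 6.75 and 96.7 ± 15.3 (0.52 ± 0.34). In both, all plasma high sets lay above all plasma none sets, as in 8.51% of all genes. G6pdx and Pgd, the dehydrogenases of that pathway that yield NADPH, had -0.51 ± 0.53 and -0.35 ± 0.28, while Idh1 had 0.50 ± 0.91 and Me2 -0.29 ± 0.60.

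Of 12 enzymes that remove superoxide and peroxide, the products of the oxidase, 10 were tested, 0 met the size rule, 3 were higher in 3 of 3 TH numbers and 0 lower, with a median of 0.52. Over all genes 5.15% met the size rule, 18.8% were higher and 13.8% lower, with a median of 0.05. A count of 3 in 10 is too small to be told from the share that was higher. Gpx1, a peroxidase, had 211.9 ± 7.32 CPM among plasma none cells and 334.5 ± 46.4 in plasma high (0.65 ± 0.19), and Prdx5 96.5 ± 17.8 and 154.9 ± 8.97 (0.69 ± 0.23), with no overlap in either (8.51% of all genes). Gpx4 was the third, named after its value was seen. Prdx6 had 1.58 ± 2.01 with both signs, and the smallest ratios were those of Txnrd1, not tested (-0.52 ± 2.03), Cat (-0.42 ± 0.52) and Sod1 (-0.28 ± 0.37).

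The transcription factors known at the Cybb promoter were all tested and 0 of 3 met the size rule. For plasma high against plasma none 5.15% of all genes did. Irf1 was higher in 3 of 3 TH numbers (0.75 ± 0.57), as were 18.8% of all genes, with overlapping groups. Spi1, which encodes PU.1, had -0.07 ± 0.13 and Irf8 -0.11 ± 0.10. Of 9 other NADPH oxidase genes and their partners, 6 had no read in the passing cells and 0 were tested.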

How the data were processed

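Per the labels, single sorted microglia were processed with Smart-seq2. The submitters' processing notes name bcl2fastq, Trim Galore, STAR 2.5.3a, Seurat and mm10, without their roles. The authors deposited 1 table of read counts per TH number. Per the file headers, TH 2 and TH 3 used alignments limited to top hits, a note TH 1 lacks. The counter and its use of strand are not given in the sources used here. The deposited values are whole counts except for 2 values of 0.5 in 1 TH 3 column, which is an expected count and was rounded.

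Passing cells had at least 50000 reads and 500 genes. Their reads were summed per group and TH number (9 sums) and scaled to CPM with TMM factors (edgeR 4.0.16, R 4.3.3). Log2 ratios used a pseudocount of 1 CPM within each TH number and were averaged over 3. No model was fitted and no p-value computed. The low-value filter uses the mean of both groups, so a gene close to it that falls can drop out untested. This was seen when the code was tested on data made with known folds: every miss was such a fall. Cells were sorted singly, and no doublet caller was run. The TH number served as the pairing of the ratios, by label only. Genes named are the 5 members, genes of the lists at 20 CPM or more (the 3 largest and 3 smallest ratios where over 8 qualify) and the 3 most correlated with each member. One gene of the partner list is not reported here. The members were taken by name, but this set of genes and the lists were chosen with earlier results of these data known. Alternatives covered scaling, cell and gene filters, pseudocount, weight of cells, wells and TH numbers.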

Additional observations from a re-analysis of the deposited data

How the results depend on the processing

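All 15 alternatives kept the direction of Rac2 in plasma high against plasma none (0.39 to 0.65) and against plasma low (0.25 to 0.51). Cyba, Ncf1 and Ncf4 had ratios within their SD of 0 for plasma high against plasma none, and alternatives gave both signs. With reads summed over TH numbers, that is without the pairing, Cybb had 5.40 for plasma high against plasma none. For Cybb this log2 ratio of 5.28 depends on the settings: it was 4.65 as a mean over cells, 4.68 in thinned cells, 3.61 without the top cell of each sum, 8.57 with a pseudocount of 0.1 CPM and 3.11 with 5 CPM. For Cyba in the same comparison it was 0.13 as a mean over cells, 0.15 in thinned cells and 0.11 without the outermost wells. Against plasma low, Cyba turned from -0.06 to 0.0376 as a mean over cells and 0.0642 in thinned cells. Ncf1 in plasma low against plasma none was 0.0941 in thinned cells, and Rac2 0.26 as a mean over cells and 0.35 in thinned cells. The median over all 5 members, Cybb included, was 0.209 in plasma high against plasma low at the main settings. It was 0.0613 as a mean over cells and 0.0230 without the top cell, and leaving out each TH number gave 0.0385 to 0.331.

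Shares over all genes depend on the filters and are given in the order high against none, low against none, high against low. The share of tested genes past the size rule (5.15%, 2.64% and 3.28%) was 7.97%, 6.21% and 6.52% without a filter on low genes, 1.12%, 0.128% and 0.2497% at a mean of 200 CPM, and 16.3%, 10.2% and 11.1% at 1.5-fold. Leaving out each TH number gave 8.11% to 10.9%, 5.48% to 6.87% and 6.83% to 7.74%. Genes with 1 sign in every TH number (32.5%, 28.5% and 27.2%) made up 21.03%, 19.5% and 18.9% without the filter and 45.04%, 31.6% and 30.6% at 200 CPM. With a TH number left out they were 54.1% to 55.9%, 52.2% to 52.7% and 50.6% to 52.8%, since fewer signs must match. By Spearman correlation, 0 of the 3 genes most like Cyba, Cybb and Rac2, 1 of those most like Ncf4 and 2 of those most like Ncf1 stayed among the first 3. The count of 0 plasma none cells with a Cybb read leaves shares of up to 0.867% possible by the limit of 3 counts. By the Clopper-Pearson interval it leaves up to 1.06%.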
